A study of Mus musculus with 12 samples.

Results

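The livers of mice with CCl4 fibrosis were compared with control livers, to see which liver cell types and which hepatocyte functions stand higher or lower after 8 weeks of CCl4. The livers were chosen by their group titles, which gave 3 model livers and 3 control livers, 6 of the 12 livers in the series. All came from male C57/BL6N mice. The control mice carry the treatment label WT, and the labels give no vehicle and no age. For 8 weeks the model mice had 2 injections a week of CCl4 in olive oil into the peritoneum, each of 5 mL/kg. The other 6 livers had the same CCl4 course with silibinin or phloridzin from week 5, 3 livers with each. They were not compared here, but they enter the scaling between livers, the filter of genes, the principal components and the spread of the statistical fit. Total RNA of whole liver was sequenced to 105.2, 108.4 and 109.6 M fragments in the control livers and to 83.7, 101.5 and 100.1 M in the model livers, as recovered from the deposited values.

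CCl4 is turned into reactive radicals by the cytochrome P450 enzyme Cyp2e1, which hepatocytes around the central vein hold in the largest amount, so that injury begins there. Hepatic stellate cells, which store vitamin A at rest, can turn into myofibroblasts that lay down fibrillar collagen, and macrophages derived from blood monocytes gather in the scar. Hepatocytes share their work by place, with urea and glucose made mainly near the portal vein, and glutamine synthesis and drug metabolism mainly near the central vein.

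Levels are FPKM (fragments per kilobase of transcript, also divided by library size) summed over the transcripts of a gene symbol and scaled between livers by median ratios. A log2 fold change is the difference between the group means of log2(FPKM + 1), model minus control, and for genes near 0 FPKM it is smaller than the ratio of the levels. A gene was called, and is said to have risen or fallen, when limma gave it a Benjamini-Hochberg adjusted p under 0.05 over the 13086 genes tested. With 3 livers against 3, an exact permutation test of a single value cannot go below a p of 0.10, so the fit across genes carries the tests. Gene lists of cell types and functions are described by their counts and median log2 fold change and were not tested as sets. Where a list had 5 or fewer called members they are named, and some of these were chosen after their values were seen.

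Of the 13086 genes, 3274 (25.0%) were called, with 1727 (13.2%) higher and 1547 (11.8%) lower in the model livers. The median log2 fold change was 0.77 over the genes that rose, -0.76 over those that fell and 0.01 over all genes tested. When a change of more than 1 on the log2 scale in either direction was also asked for, 979 genes (7.48%) remained, 526 higher and 453 lower. The levels of the control and model livers did not overlap in 5666 genes (43.3%), which include 98.5% of the called genes. The first principal component of the 12 livers, with 26.8% of the variance, placed the control livers at -37.1, -38.7 and -37.2 and the model livers at 34.2, 42.6 and 34.2.

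The balance of directions rested on the scaling between livers. Without scaling, the median log2 fold change of all genes moved by 0.33 and the split became 4094 higher and 500 lower, so that 89.1% of the called genes were higher, against 52.7% with scaling. Every direction below is relative to the median of the scaled genes. The number of genes that fell dropped to 980 without model replicate 2 and to 1011 without control replicate 2.

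The labelled tissue was checked by its markers. Albumin (Alb) was at 12468, 17649 and 14032 FPKM in the control livers and at 11078, 17879.8 and 19849.8 in the model livers, with groups that overlap. Alb was not called, with a log2 fold change of 0.12. Markers of pancreas, fat and muscle summed to between 9.46 and 13.7 FPKM in the control livers and between 5.17 and 7.22 in the model livers over 14 genes, most of it from Cela1. Cpa1, Cpb1, Plin1, Ckm, Myh1 and Myh4 are listed at 0 in all 6 livers. Of this list 1 gene was tested, Cela1, with a log2 fold change of -0.77, and its call was lost without scaling.

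Genes of major urinary proteins (Mup), some of which had the largest falls of all, and loci without a gene name were set apart from the largest rises and falls over all genes. Among these rises was Sprr1a, a small proline-rich protein of epithelia, listed at 0 in the 3 control livers and at 28.4, 51.2 and 24.0 FPKM in the model livers. Among the falls was Fitm1, which helps to form lipid droplets, at 12.7, 19.5 and 12.2 FPKM in the control livers and at 0.248, 0.282 and 0.573 in the model livers. The others of both kinds are given with their lists, and Mup genes with the male-biased genes.

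All 51 lists together hold 1399 genes, of which 1390 are in the table and 1239 passed the filter of a mean of 0.5 FPKM over the 12 livers. Of those tested 483 were called, and 2791 called genes are in no list.

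**Figure D1:**
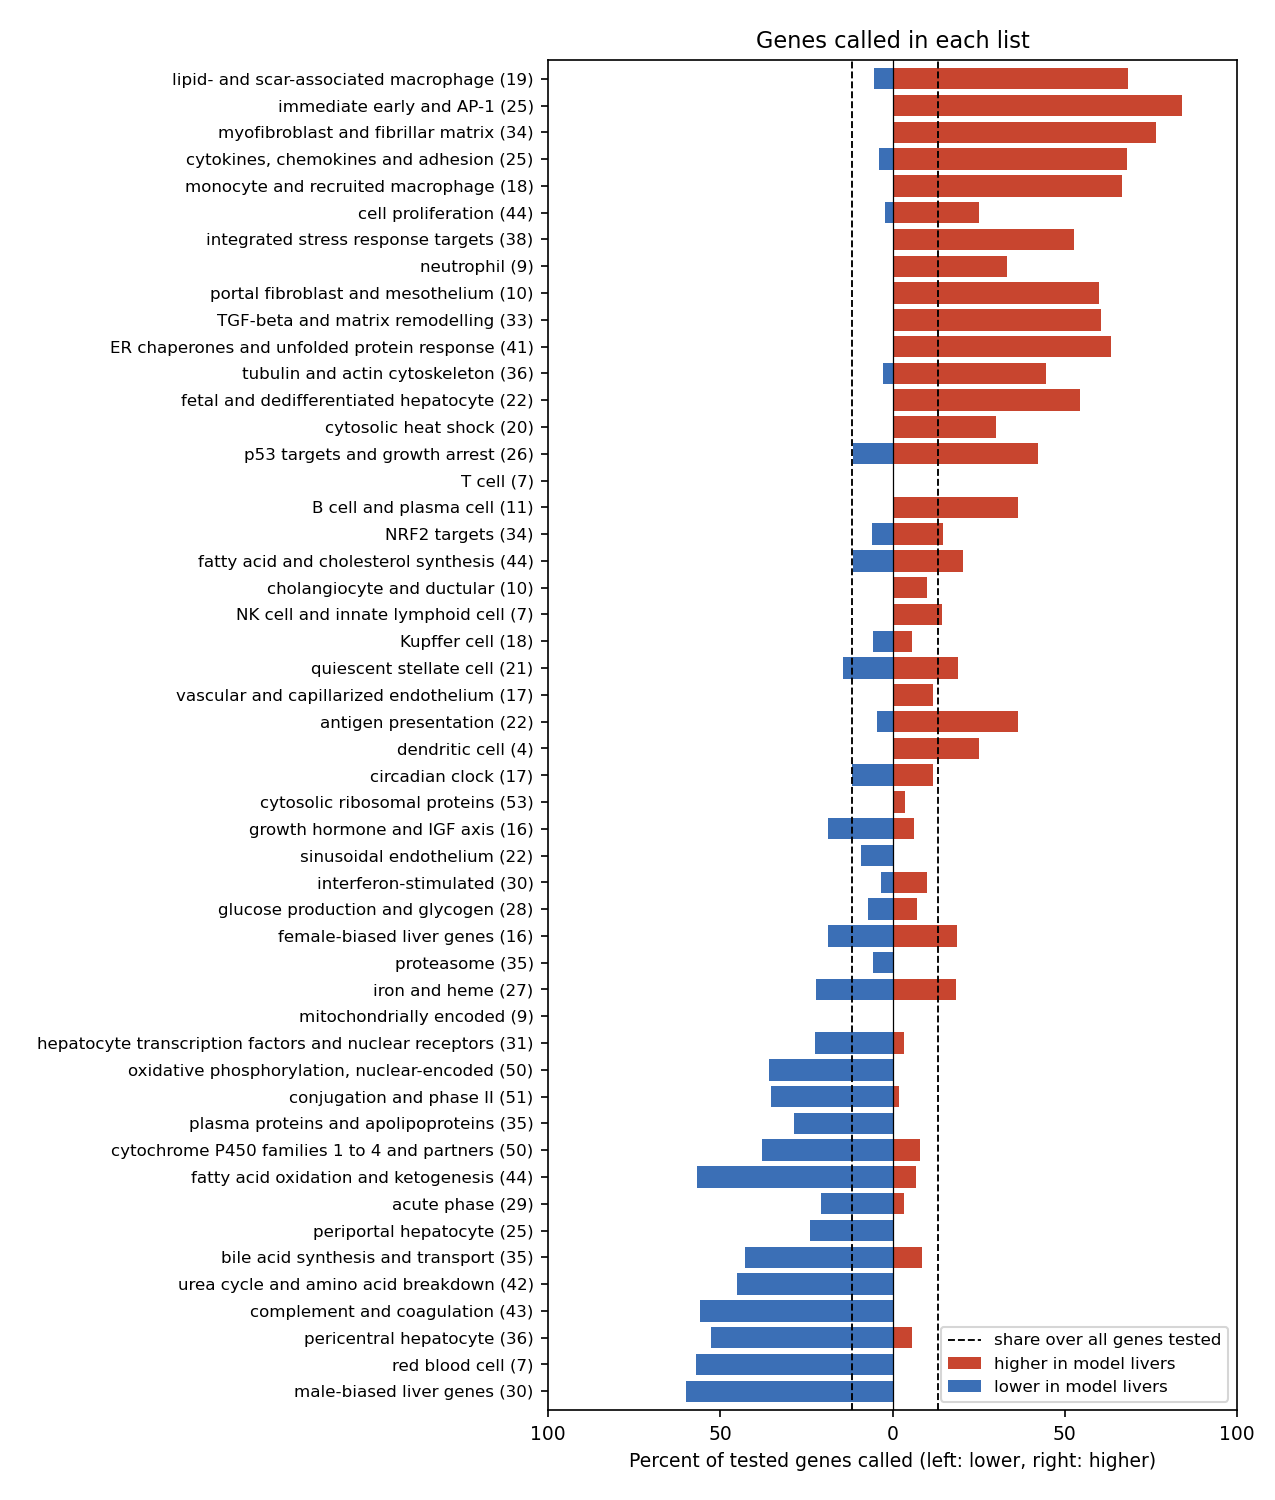
Percent of the tested genes of each list that were called higher (right, red) or lower (left, blue) in model livers, with the number tested in brackets and the lists ordered by median log2 fold change. Dashed lines mark the shares over all genes tested, 13.2% higher and 11.8% lower, and the list of pancreas, fat and muscle genes, with 1 tested gene, is not drawn.

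Of 34 tested genes of myofibroblasts and fibrillar matrix 26 rose and 0 fell, with a median log2 fold change of 1.17. Col1a1 (ENSMUSG00000001506), which encodes a chain of type I collagen, was at 1.89, 1.18 and 1.81 FPKM in the control livers and at 39.0, 32.1 and 52.4 in the model livers. Every model liver lay far above every control liver, and the log2 fold change was 3.99 (standard error, SE, 0.52, limma with Benjamini-Hochberg, adjusted p = 7.3e-04). Col3a1, the chain of type III collagen, was at 4.52, 3.63 and 4.60 FPKM in the control livers and at 57.9, 46.9 and 52.2 in the model livers. Its log2 fold change was 3.34 (SE 0.43), with no overlap between groups. Col6a3, a chain of the microfibrillar type VI collagen, and Lum, which encodes the collagen-binding proteoglycan lumican, rose by 2.20 and 2.15 on the log2 scale.

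Acta2, smooth muscle actin and the usual stain for activated stellate cells, was at 4.52, 0.310 and 0.743 FPKM in the control livers and at 5.17, 3.35 and 1.36 in the model livers. Control replicate 1 stood above 2 of the 3 model livers, and Acta2 was not called, with a log2 fold change of 0.78 (SE 0.53, limma with Benjamini-Hochberg, adjusted p = 0.31). Fn1, fibronectin, was the most abundant gene of the list and is also secreted by hepatocytes, at 577, 419.5 and 611 FPKM in the control livers and 437, 429 and 302 in the model livers. The groups overlap and Fn1 was not called.

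In bulk liver, more or fewer cells of a type and more or less RNA per cell cannot be told apart, and this holds for every cell type described here.

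Of 21 tested genes of resting stellate cells 4 rose, among them Lrat, Ednrb and Cygb, and 3 fell (Fcna, Vipr1 and Colec11), with a median log2 fold change of 0.20, and without scaling 12 were higher and 1 lower. Lrat, the enzyme that esterifies retinol for storage, was at 4.51, 4.53 and 5.26 FPKM in the control livers and at 10.7, 10.4 and 12.6 in the model livers. The groups are well apart, with a log2 fold change of 1.08 (SE 0.15, limma with Benjamini-Hochberg, adjusted p = 9.2e-04). Dcn and Reln, the 2 most abundant stellate genes, had log2 fold changes of 0.20 each and were not called. Fcna fell from 35.4, 36.4 and 33.7 FPKM to 4.15, 2.16 and 11.8, and its call was lost when control replicate 1, 2 or 3 or model replicate 1 or 2 was left out. The count of genes that fell was 1 without control replicate 2 or 3 or model replicate 1 or 2. Colec11, a soluble lectin, was among those lost without these livers, and neither it nor Vipr1 was called lower without scaling.

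Portal fibroblast and mesothelial genes had 6 of 10 tested members higher and 0 lower, with a median of 0.80. Wt1, a transcription factor of mesothelium and of stellate cell precursors, was at 0.0981, 0.0735 and 0.384 FPKM in the control livers and at 2.65, 2.11 and 2.59 in the model livers. Dpt, encoding the matrix protein dermatopontin, rose by 1.61 on the log2 scale, and Eln, elastin, and Cd34 rose by 1.08 and 1.12, while the call of Eln was lost, at a value of 0.62, when only protein-coding transcripts were summed.

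Of 33 tested genes of TGF-beta signalling and matrix remodelling 20 rose and 0 fell, with a median of 0.77. The matrix-degrading enzymes Mmp2 and Mmp13 rose together with the inhibitor Timp1. Mmp13, a collagenase, was at 0, 0.109 and 0.0167 FPKM in the control livers and at 3.28, 5.73 and 5.62 in the model livers. Timp1, an inhibitor of these enzymes, was at 0.122, 0.0944 and 0 FPKM in the control livers and at 1.17, 2.53 and 1.22 in the model livers, a log2 fold change of 1.26 (SE 0.26, limma with Benjamini-Hochberg, adjusted p = 0.0068). Plaur, the receptor of urokinase, rose by 2.23 on the log2 scale. Mmp19 and Mmp14 were the most abundant members and were not called, with log2 fold changes of -0.31 and 0.17.

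Of 18 tested genes of Kupffer cells, the resident macrophages of the liver, 1 rose (Id3) and 1 fell (Cd163), with a median of 0.20. Clec4f, a lectin found in Kupffer cells, was at 15.7, 26.3 and 28.8 FPKM in the control livers and at 9.27, 25.0 and 20.8 in the model livers. The groups overlap, and Clec4f was not called (log2 fold change -0.41, limma with Benjamini-Hochberg, adjusted p = 0.51). Cd5l, the most abundant gene of the list, was at 64.3, 114 and 74.6 FPKM against 78.2, 126 and 80.8, again with overlap. C1qb, a chain of the complement protein C1q, was at 36.0, 47.6 and 47.9 FPKM in the control livers and at 52.4, 75.5 and 67.8 in the model livers, without overlap, and was not called (log2 fold change 0.56, limma with Benjamini-Hochberg, adjusted p = 0.1). Cd163, a receptor for haptoglobin with hemoglobin, fell by 0.87, and its call was lost without control replicate 1 or 2 or model replicate 1 or 3 and without scaling. Unscaled, 6 Kupffer cell genes were higher.

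Of 18 tested genes of monocytes and recruited macrophages 12 rose and 0 fell, with a median of 1.10. Cd14, a coreceptor for bacterial lipopolysaccharide, was at 1.54, 1.26 and 2.30 FPKM in the control livers and at 16.4, 29.2 and 25.2 in the model livers. This is a log2 fold change of 3.17 (SE 0.23, limma with Benjamini-Hochberg, adjusted p = 2.3e-05). Lyz2, lysozyme, was at 35.4, 75.8 and 79.3 FPKM in the control livers and at 151, 243 and 216 in the model livers, all 3 above the highest control. Ms4a7 and Chil3, also of macrophages, rose by 1.85 and 1.70. Ifitm3, the other abundant member, was not called, with a value of -0.54.

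Lipid- and scar-associated macrophage genes had 13 of 19 tested members higher and 1 lower (Ctsz), with a median of 1.44. Gpnmb, a membrane glycoprotein of lipid-laden macrophages, was at 0.394, 0 and 0.235 FPKM in the control livers and at 24.3, 18.0 and 37.7 in the model livers. Trem2, a lipid-sensing receptor of the same cells, was at 1.55, 1.03 and 0.163 FPKM and at 7.38, 10.3 and 10.3, a log2 fold change of 2.49 (SE 0.34). Mmp12, the macrophage elastase, was at 0.0435, 0.0280 and 0.0422 FPKM in the control livers and at no less than 8.07 in the model livers, a log2 fold change of 3.46. In all of these the model livers lie above the control livers without overlap. Anxa2 and Cd63, which many cell types express, rose by 2.96 and 2.71. Plin2, a coat protein of lipid droplets in hepatocytes too, and Ctsd were the most abundant members and were not called, with values of 0.34 and 0.69. Ctsz, a protease of lysosomes, fell by 0.52, a call that was lost without control replicate 1, 2 or 3 or model replicate 1 and without scaling.

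**Figure D2:**
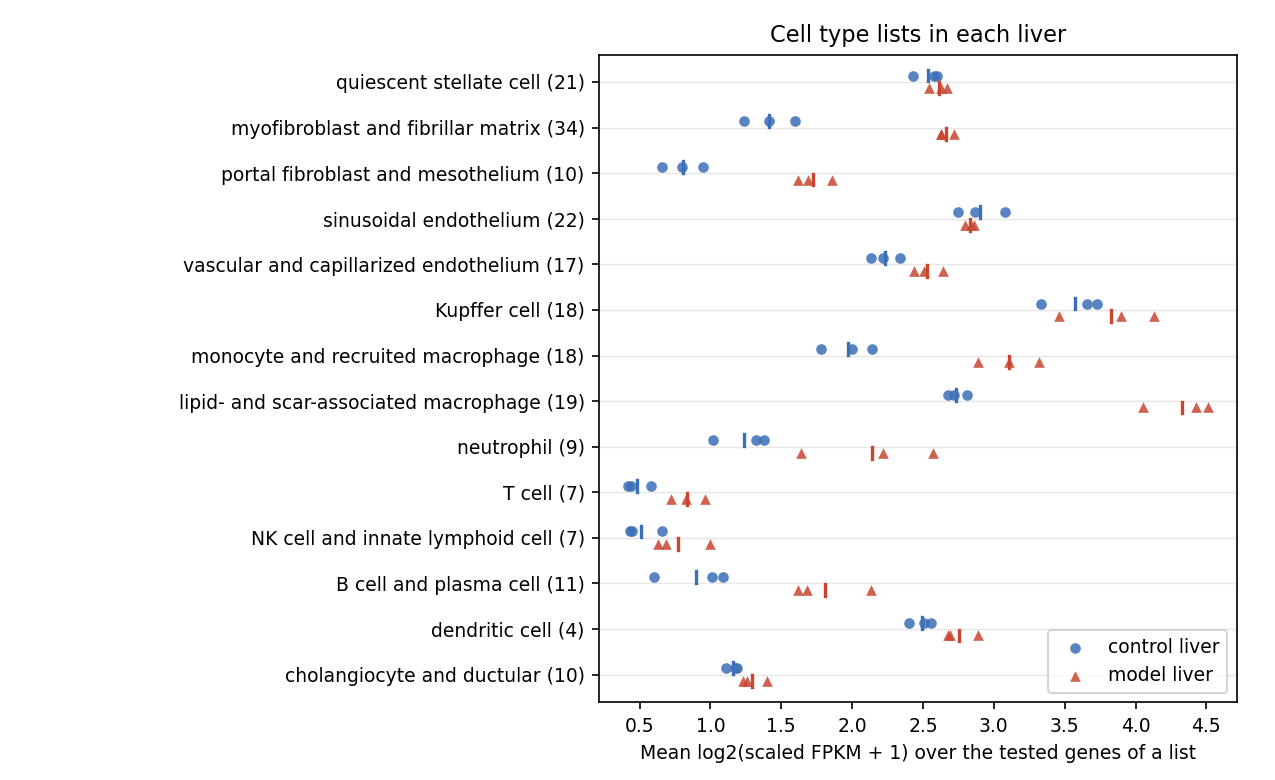
Mean log2(scaled FPKM + 1) over the tested genes of each cell type list, with circles for the 3 control livers, triangles for the 3 model livers and a bar at each group mean. The model livers lie above the control livers without overlap for scar-associated macrophage (4.05, 4.43 and 4.51 against 2.72, 2.68 and 2.81) and myofibroblast genes, while the groups overlap for resting stellate, sinusoidal and Kupffer cell genes, which lie higher in all model livers when FPKM is left unscaled.

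Of 9 tested neutrophil genes 3 rose (Il1b, Hdc and Csf3r) and 0 fell, with a median of 0.84, and 5 were higher without scaling. Csf3r, the receptor of a neutrophil growth factor, was not called without control replicate 2 or model replicate 2 or 3. S100a8, the most abundant gene of the list, was at 19.5, 5.81 and 22.9 FPKM in the control livers and at 18.3, 39.7 and 24.8 in the model livers, with overlap, and was not called. S100a9, a calcium-binding protein like S100a8, was at 0, 1.16 and 0 FPKM in the control livers and at 0, 12.9 and 5.43 in the model livers. Model replicate 1 was at 0 like 2 of the controls, and S100a9 was not called (log2 fold change 1.79, limma with Benjamini-Hochberg, adjusted p = 0.33). Of 7 tested T cell genes 0 were called by limma, with a median of 0.45, while 3 were higher at an unadjusted p under 0.05, 2 were called higher by voom and 3 were called higher without scaling. Cd3e, a chain of the T cell receptor complex, lay between 0.568 and 0.975 FPKM in the control livers and between 0.541 and 1.48 in the model livers, with overlap. Trbc1, of the T cell receptor, was at 0.528, 0.670 and 0.121 FPKM in the control livers and at 1.51, 0.814 and 1.07 in the model livers. Lck, a kinase of T cells, was at 0.541, 0.694 and 0.276 FPKM and at 0.907, 1.12 and 0.845, and neither gene's groups overlap, with log2 fold changes of 0.57 and 0.39. The mean log2 level of the T cell list was 0.42, 0.58 and 0.44 in the control livers and 0.83, 0.72 and 0.96 in the model livers. NK cell genes had 1 of 7 higher (Klrd1), with a median of 0.24, and 3 without scaling, and Klrd1 was called with all livers or without control replicate 2 and not without any of the other 5. Dendritic cell genes had 1 of 4 higher (Fscn1, an actin-bundling protein), with a median of 0.15, and 2 without scaling.

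B cell and plasma cell genes had 4 of 11 tested members higher (Igkc, Igha, Jchain and Cd22), with a median of 0.42. Those of highest level are antibody chains of plasma cells. Igkc, the constant part of the kappa light chain, was at 3.11, 7.54 and 7.57 FPKM in the control livers and at 24.2, 64.1 and 21.1 in the model livers. Igha, of the IgA heavy chain, was at 1.38, 3.95 and 1.83 FPKM against 8.26, 18.1 and 15.3, and neither gene's groups overlap. Jchain rose by 1.49 with groups that overlap, and its call was lost without control replicate 1 or 3 or model replicate 2 or 3, while that of Cd22 was lost with any 1 of the 6 livers left out. Cd79a, a chain of the B cell receptor, stayed under the filter in this table, at 0.0593, 0.122 and 0.290 FPKM in the control livers and 0.241, 0.664 and 0.318 in the model livers. The count of higher genes was 2 without control replicate 1 or 3 or model replicate 2, and 7 without scaling.

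Of 22 tested genes of antigen presentation 8 rose and 1 fell (H2-T23), with a median of 0.16. The call of H2-T23 was lost without control replicate 2 or model replicate 1, 2 or 3 and without scaling. H2-Eb1, of the MHC class II that macrophages, B cells and dendritic cells use to present peptides, was at 6.06, 9.24 and 6.16 FPKM in the control livers and at 19.8, 22.5 and 17.6 in the model livers, a log2 fold change of 1.38 (SE 0.19, limma with Benjamini-Hochberg, adjusted p = 1.0e-03). H2-Aa, its partner chaperone Cd74 and H2-Ab1 rose by 1.16, 1.15 and 1.12. The class I genes B2m and H2-K1, found in nearly all cells, were not called, with values of -0.48 and -0.45, and the difference between the classes was not tested.

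Of 25 tested cytokine, chemokine and adhesion genes 17 rose and 1 fell, with a median of 1.15, and the count that rose was 11 without model replicate 2. Cxcl10, which attracts lymphocytes, was at 0.902, 0.377 and 0.566 FPKM in the control livers and reached 11.8 in model replicate 2, a log2 fold change of 2.86. Ccl7, which attracts monocytes, was at 0, 0.208 and 0.306 FPKM and at 2.73, 15.1 and 3.31, with model replicate 2 the highest. Tnfrsf12a, the receptor of the cytokine TWEAK, rose by 3.27 (SE 0.27, limma with Benjamini-Hochberg, adjusted p = 5.0e-05). Cxcl12 was the member that fell, by 0.89, from 85.3, 88.9 and 99.1 FPKM to 43.4, 46.6 and 56.8, and its call was lost without scaling. Cxcl1 reached 55.6 FPKM in control replicate 1 and was not called.

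Interferon-stimulated genes had 3 of 30 tested members higher (Cxcl10, Cxcl9 and Gbp2), 1 lower (Irf9) and a median of -0.08, which becomes 0.33 without scaling, 0.14 without control replicate 2, 0.04 without model replicate 1 and 0.07 without model replicate 3. Cxcl9 had 0 FPKM in the 3 control livers and was at 3.00, 2.84 and 0.478 FPKM in the model livers. Its call was lost when control replicate 1, 2 or 3 or model replicate 1 or 2 was left out. Gbp2, a GTPase induced by interferon, was not called without control replicate 2 or 3 or model replicate 2. Irf9, a part of the interferon-activated transcription complex, fell by 1.41. The count that rose was 1 without control replicate 2 or 3 or model replicate 2.

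Of 22 tested genes of sinusoidal endothelium 0 rose and 2 fell (Fcgr2b and Ehd3), with a median of -0.07 that becomes 0.31 without scaling, where 3 genes were higher and 0 lower. It becomes 0.07 without control replicate 3 and 0.01 without model replicate 3. Stab2, a scavenger receptor of these cells, was at 5.94, 5.28 and 7.20 FPKM in the control livers and at 7.65, 5.31 and 3.84 in the model livers. The groups overlap and Stab2 was not called, with a log2 fold change of -0.14. Fcgr2b, which clears immune complexes, was at 12.9, 16.5 and 17.0 FPKM and at 7.93, 10.4 and 9.19, and this fall of 0.69 on the log2 scale was not called without scaling or over protein-coding transcripts only. Ehd3, of endothelial membrane traffic, lost its call without control replicate 2 or 3 or model replicate 1 or 2 and without scaling. Of 17 tested genes of vascular and capillarized endothelium 2 rose and 0 fell, with a median of 0.18, and 6 were higher without scaling. They are the basement membrane chains Col4a1 and Col4a2, which stellate cells also make, with log2 fold changes of 0.95 and 0.83. The call of Col4a2 was lost when control replicate 1 or 2 or model replicate 1, 2 or 3 was left out.

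Bile duct genes had 1 of 10 tested members higher (Elf3) and 0 lower, with a median of 0.28, and 2 higher without scaling. Elf3, a transcription factor of epithelia, was not called without control replicate 1, 2 or 3 or model replicate 1 or 2. Krt19, a keratin of bile duct cells, was at 0.624, 0.668 and 0.762 FPKM in the control livers and at 1.06, 1.63 and 1.54 in the model livers. The groups do not overlap, but Krt19 missed the threshold (log2 fold change 0.51, limma with Benjamini-Hochberg, adjusted p = 0.085). Epcam stayed under the filter, at 0.191, 0.153 and 0.0654 FPKM in the control livers and 0.231, 0.306 and 0.223 in the model livers.

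**Figure D3:**
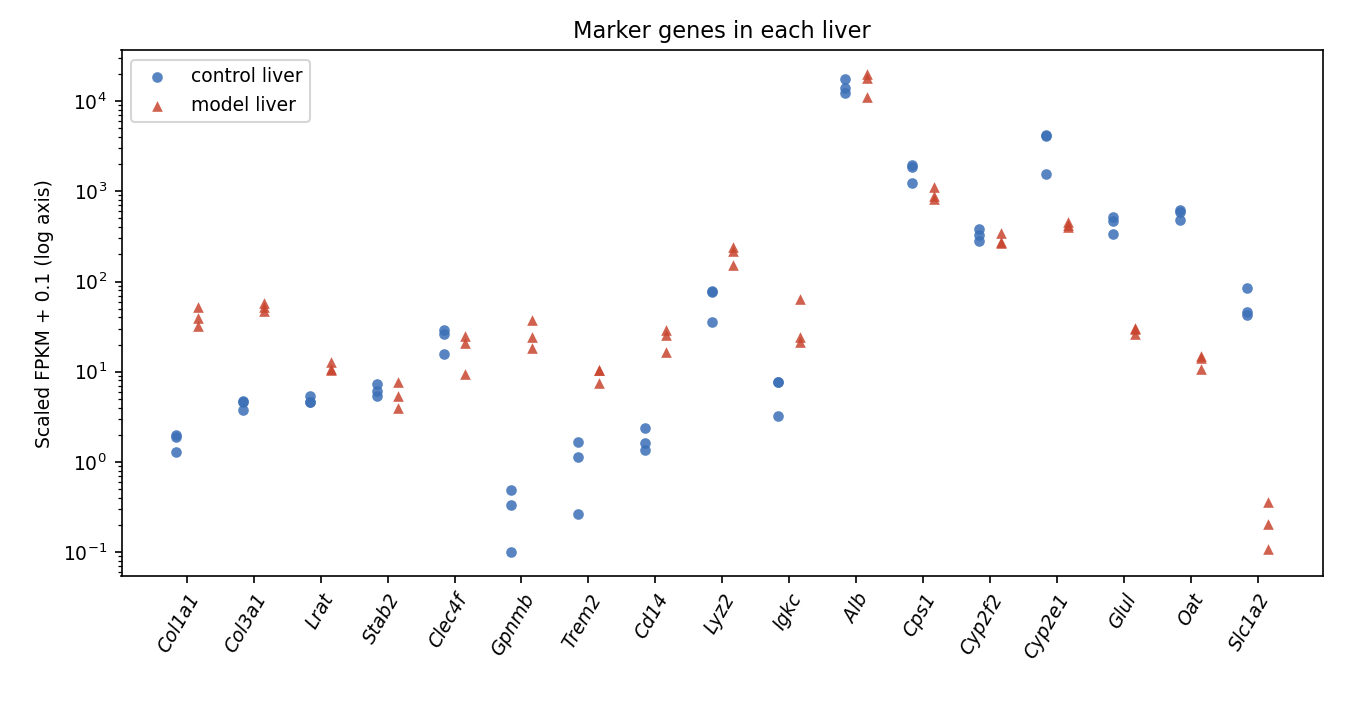
Level of 17 marker genes in each of the 3 control livers (circles) and 3 model livers (triangles), as scaled FPKM plus 0.1 on a log axis. Col1a1, Gpnmb, Cd14 and Igkc lie higher and Glul, Oat, Cyp2e1 and Slc1a2 lower in every model liver, while Stab2, Clec4f, Alb and Cyp2f2 overlap between the groups.

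Hepatocyte genes of the zone around the central vein were lower in more than the share over all genes. Of 36 tested pericentral genes 19 fell and 2 rose (Slc1a4 and Cyp1a1), with a median of -1.06. Slc1a4 lost its call without control replicate 1 or 2, and Cyp1a1 without control replicate 1, 2 or 3 or model replicate 1 or 3. Glul (ENSMUSG00000026473), glutamine synthetase, is made in the innermost layer of cells around the vein and was at 513, 338 and 467 FPKM in the control livers and at 26.1, 29.6 and 30.7 in the model livers. Its log2 fold change was -3.87 (SE 0.21, limma with Benjamini-Hochberg, adjusted p = 5.6e-06). Oat, ornithine aminotransferase, fell from 619, 484 and 597 FPKM to 10.6, 14.2 and 15.0. Slc1a2, a glutamate transporter, went from 85.1, 45.7 and 42.5 FPKM to 0.103, 0.00738 and 0.258, all under 1 FPKM. In these 3 genes no model liver came near the control range. Lhpp, a phosphatase, fell by 4.18 on the log2 scale, and by 1.42 when only protein-coding transcripts were summed.

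Cyp2e1, the enzyme that activates CCl4, was at 4181, 1551 and 4128 FPKM in the control livers and at 399, 425 and 462 in the model livers. Its log2 fold change was -2.80 (SE 0.41, limma with Benjamini-Hochberg, adjusted p = 0.0012). Control replicate 2 was the lowest control liver, and it still stood above all model livers. Nr1i3, the nuclear receptor CAR, which switches on drug metabolism genes, fell by 1.43, and its call was lost without scaling. Cyp3a11, the 2nd most abundant member, was not called, with overlapping groups and a log2 fold change of 0.38.

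Periportal genes showed a smaller share of calls than pericentral genes, though more of them fell than the 11.8% over all genes tested. Of 25 tested 6 fell and 0 rose, with a median of -0.82, and without scaling 4 were lower and 2 higher. Cyp2f2, a P450 enzyme of periportal cells, was at 278, 383 and 332 FPKM in the control livers and at 272, 269 and 343 in the model livers. Cyp2f2 was not called, with overlap and a log2 fold change of -0.16 (SE 0.22, limma with Benjamini-Hochberg, adjusted p = 0.62). Cps1, the entry enzyme of the urea cycle, was at 1943, 1875 and 1244 FPKM in the control livers and at 819, 897 and 1125 in the model livers. The groups do not overlap, but Cps1 was not called (log2 fold change -0.82, limma with Benjamini-Hochberg, adjusted p = 0.086). Hal, which breaks down histidine, fell by 1.94, and Agxt, which detoxifies glyoxylate, by 1.64. The difference between the pericentral and the periportal lists was not tested.

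Of 42 tested genes of the urea cycle and amino acid breakdown 19 fell and 0 rose, with a median of -0.90. Got1, which moves the amino group of aspartate, fell by 2.02, and its call was lost without control replicate 1 or 2 or model replicate 1 or 2. Tdo2, which opens the ring of tryptophan, was at 489, 448 and 416 FPKM in the control livers and at 100.3, 82.4 and 198 in the model livers. That made a log2 fold change of -1.92 (SE 0.28, limma with Benjamini-Hochberg, adjusted p = 0.0012). Mat1a, which makes the methyl donor S-adenosylmethionine, went from 2731, 2368 and 2659 FPKM to 755, 664 and 724, and its call was lost without control replicate 1 or model replicate 2. Ass1 of the urea cycle was not called, with a value of -0.63. The count that fell was 12 without control replicate 2 or model replicate 1 or 2.

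The cytochrome P450 enzymes of families 1 to 4 and their partners had 19 of 50 tested members lower, 4 higher and a median of -0.79, with 11 lower without scaling. Cyp2c37 was at 238, 205 and 151 FPKM in the control livers and at 8.75, 8.72 and 22.5 in the model livers. Those that rose are Cyp2a4, Cyp2b10, Cyp2c55 and Cyp1a1. The call of Cyp1a1 was lost without control replicate 1, 2 or 3 or model replicate 1 or 3. Cyp2b10, the usual target of CAR, was at 1.94, 3.92 and 0.812 FPKM in the control livers and at 14.3, 8.85 and 32.1 in the model livers, while the receptor Nr1i3 fell. Cyp2a4 was at 0.205, 0.264 and 0.0768 FPKM and at 9.59, 5.29 and 15.8. Members of the Cyp2a and Cyp2c families are near-identical in sequence, so the share of reads given to each is uncertain.

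Conjugating enzymes of phase II had 18 of 51 tested genes lower and 1 higher, with a median of -0.47 that is -0.03 without scaling, where 8 were lower and 4 higher. Gstt3, a glutathione transferase, was at 22.8, 20.9 and 20.7 FPKM in the control livers and no higher than 5.94 in the model livers. The member that rose is Gsta1, another glutathione transferase, at 0.321, 1.94 and 0 FPKM in the control livers and at 14.1, 31.6 and 21.5 in the model livers, and voom did not call it. Gstp1, the 2nd most abundant member, was not called and its groups overlap. The count that fell was 10 without control replicate 2 or model replicate 2.

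Genes of bile acid synthesis and transport had 15 of 35 tested members lower, 3 higher (Abcc4, Cyp39a1 and Abcb1a) and a median of -0.86. Cyp8b1, which directs synthesis to cholic acid, was at 299, 376 and 237 FPKM in the control livers and at 29.5, 15.7 and 39.9 in the model livers. Cyp7b1, of the alternative route, was at 204, 146 and 177 FPKM and at 26.2, 30.7 and 8.07. Both enzymes fell without overlap between the groups, by 3.45 and 3.14 on the log2 scale. Cyp7a1, which sets the pace of the classical route, was at 41.7, 30.3 and 27.9 FPKM in the control livers and at 20.3, 3.16 and 19.8 in the model livers, and was not called (log2 fold change -1.47, limma with Benjamini-Hochberg, adjusted p = 0.15). Among transporters, the uptake carrier Slco1b2 fell by 1.14, and Abcg5, which exports sterols into bile, by 1.70. Abcc4, which exports bile acids back to blood, lay between 1.04 and 1.69 FPKM in the control livers and had a mean of 10.3 in the model livers, with no overlap.

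Of 44 tested genes of fatty acid oxidation and ketogenesis 25 fell and 3 rose (Fgf21, Acot2 and Pdk4), with a median of -0.81, and 12 were lower without scaling. Acat1, a mitochondrial thiolase, was at 24.5, 43.0 and 22.1 FPKM in the control livers and at 6.68, 9.26 and 10.5 in the model livers. The groups do not overlap, and Acat1 fell by 1.62 on the log2 scale (SE 0.33, limma with Benjamini-Hochberg, adjusted p = 0.0063). Fgf21, a hormone that the liver releases under fasting and stress, was at 0.545, 0.877 and 0.421 FPKM in the control livers and at 8.59, 8.10 and 22.6 in the model livers.

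Nuclear-encoded subunits of oxidative phosphorylation had 18 of 50 tested genes lower and 0 higher, with a median of -0.43 that becomes 0.01 without scaling, where limma called 0 lower and 2 higher. Ndufa2, of complex I, was at 25.5, 30.5 and 37.1 FPKM in the control livers and at 15.6, 16.2 and 20.4 in the model livers. Atp5b and Atp5a1, of the ATP synthase, are the most abundant and were not called. The count that fell was 10 without control replicate 1, 5 without control replicate 2, 6 without model replicate 1 and 7 without model replicate 2. Of 9 tested genes encoded by the mitochondrial genome 0 were called by limma or by voom and 1 was lower at an unadjusted p under 0.05, with a median of -0.40 that becomes 0.05 without scaling. The summed level of all 13 such genes was 4860.4, 5724 and 10026 FPKM in the control livers and 4880.3, 5166 and 5046 in the model livers, with control replicate 3 apart from the rest.

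Of 44 tested genes of fatty acid and cholesterol synthesis 9 rose and 5 fell, with a median of 0.28, and without scaling 19 were higher and 2 lower. Over all genes tested the shares were 13.2% higher and 11.8% lower. The difference from fatty acid oxidation was not tested. Scd1, which puts a double bond into saturated fatty acids, was at 20.2, 26.6 and 25.7 FPKM in the control livers and at 432, 222 and 188 in the model livers. This gave a log2 fold change of 3.40 (SE 0.30, limma with Benjamini-Hochberg, adjusted p = 9.2e-05). Thrsp, which promotes fat synthesis, and Elovl6, which lengthens fatty acids, rose by 2.12 and 1.55. Elovl3, a male-biased elongase, fell from 29.0, 116 and 121 FPKM to 4.71, 5.06 and 11.9. The others that fell were Dgat2, Insig2, Fdft1 and Hsd17b7, of which Insig2 and Hsd17b7 were not called without control replicate 3 or model replicate 2 or 3, Insig2 also not without control replicate 2 or model replicate 1 and Hsd17b7 not without control replicate 1. The count that fell was 3 without model replicate 2 or 3.

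Of 28 tested genes of glucose production and glycogen 2 rose (Igfbp1 and Pgm1) and 2 fell (G6pc and Gcgr), with a median of -0.09 that becomes 0.32 without scaling, where 4 were higher and 0 lower. G6pc, which releases free glucose, was at 114, 198 and 148 FPKM in the control livers and at 53.5, 52.2 and 70.7 in the model livers. Its call was lost without control replicate 2 or 3 or model replicate 1 or 2 and without scaling. Gcgr, the glucagon receptor, lost its call without control replicate 1, 2 or 3 or model replicate 2 or 3 and without scaling. Pck1, the gatekeeper of glucose synthesis, was at 1632, 281 and 1551 FPKM and at 344, 521 and 175, with overlap, and was not called. Igfbp1, an insulin-repressed binding protein of IGFs, was at 35.9, 24.7 and 35.4 FPKM in the control livers and at 269.6, 406 and 358 in the model livers.

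**Figure D4:**
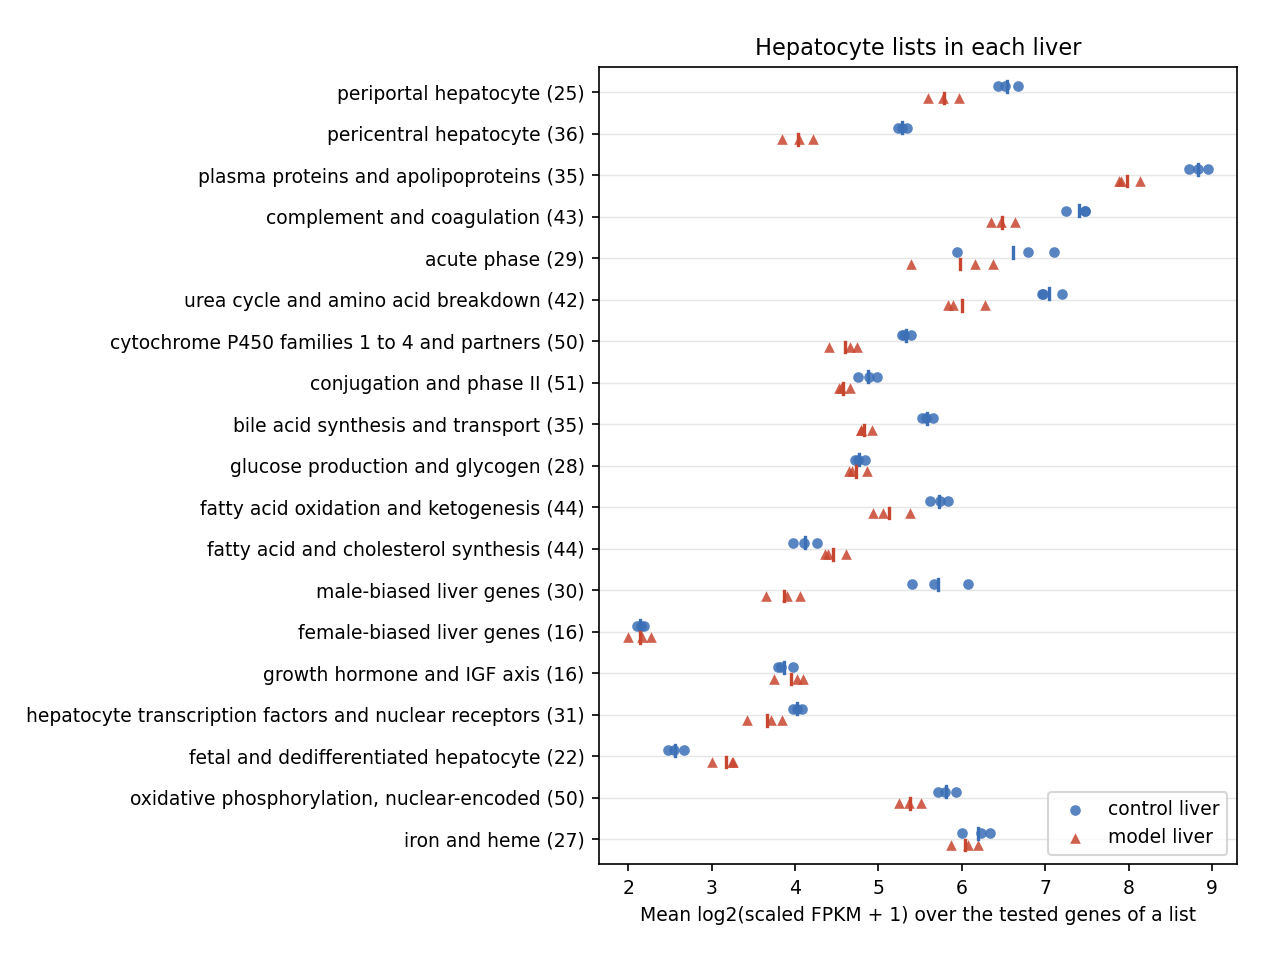
Mean log2(scaled FPKM + 1) over the tested genes of each hepatocyte list, with circles for the 3 control livers, triangles for the 3 model livers and a bar at each group mean. Pericentral genes lie at 5.34, 5.23 and 5.28 in the control livers and at 4.05, 3.84 and 4.21 in the model livers, and the lower position of the oxidative phosphorylation, phase II, fatty acid oxidation and transcription factor lists in all model livers turns into overlap when FPKM is left unscaled.

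Secreted proteins of the liver were lower in part. Of 35 tested plasma protein and apolipoprotein genes 10 fell and 0 rose, with a median of -0.74, and 3 were lower without scaling. Apoa2, of high density lipoprotein, was at 2659.8, 3367 and 3278 FPKM in the control livers and at 1107, 1583 and 1392 in the model livers. On the log2 scale the change was -1.20 (SE 0.24, limma with Benjamini-Hochberg, adjusted p = 0.0053), and Apoa2 was not called when no filter was set. Trf, transferrin, was at 7439, 3044 and 7189 FPKM and at 3402, 1387 and 953, with overlap, and its call was lost without control replicate 1 or 3, without model replicate 2 or 3 and without scaling. Lower genes numbered 5 without control replicate 3 or model replicate 2 or 3. Transcripts assembled by the authors without a gene symbol held 25.5, 29.8 and 29.8% of all FPKM in the control livers and a smaller share in every model liver, 19.6 and 20.4% in model replicates 2 and 3. Such transcripts can hold reads of abundant secreted proteins, and their part in these values was not tested.

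Complement and coagulation factors had 24 of 43 tested genes lower and 0 higher, with a median of -0.96, and 11 were lower without scaling. F5, a cofactor of clotting, was at 24.0, 85.3 and 126 FPKM in the control livers and between 9.51 and 11.1 in the model livers. Klkb1, plasma prekallikrein, fell by 2.03 and Hrg by 1.43, the latter not called without control replicate 1 or model replicate 1 or 2. C3 and Fga, the most abundant members, were not called, and the groups of Fga overlap. Lower genes numbered 15 without control replicate 1.

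Acute phase genes, which the liver makes more of in inflammation, had 6 of 29 tested members lower, 1 higher (Il1rn) and a median of -0.81. Hp, haptoglobin, was at 4903, 2502 and 6066 FPKM in the control livers and at 1243, 1422 and 1119 in the model livers, and its call was lost without control replicate 1 or 3 or model replicate 1, 2 or 3. Saa1, serum amyloid A, was at 2019, 741 and 4532 FPKM in the control livers and at 424, 326 and 26.1 in the model livers. Saa1 was not called, and its reads are uncertain because Saa2 is near-identical. Il1rn, the antagonist of interleukin 1, was at 2.03, 1.36 and 2.21 FPKM in the control livers and at 6.10, 7.93 and 7.20 in the model livers. Lower genes numbered 3 without control replicate 1, and 2 without control replicate 3 or model replicate 1, 2 or 3, and without scaling 3 were lower and 3 higher.

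Male-biased liver genes had the lowest median of the 51 lists, -1.26, with 18 of 30 tested members lower and 0 higher. These genes depend on the pulsed release of growth hormone in males. Moxd1 was at 31.6, 10.6 and 50.5 FPKM in the control livers and at 0, 0.0443 and 0.0763 in the model livers, a log2 fold change of -4.69 (SE 0.43, limma with Benjamini-Hochberg, adjusted p = 1.0e-04). Mup20 was at 3343, 4046 and 4449 FPKM and at 2048, 1456 and 1407. Other Mup genes are near-identical paralogs, so single levels such as that of Mup3, 3753, 5353 and 5976 FPKM against 1745, 2051 and 1872, are uncertain. In all 3 genes the control livers lie above the model livers, and the calls of Mup20 and Mup3 were lost when no filter was set. Larger falls with the same uncertainty were those of Mup12, Mup11 and Mup1, with log2 fold changes of -9.15, -7.13 and -5.06 and no overlap. Mup12 was at 69.6, 1731 and 1507 FPKM in the control livers and is listed at 0 in the 3 model livers, and voom did not call it.

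Female-biased genes had 3 of 16 tested members higher (Cyp2a4, Abcc4 and Atp6v0d2), 3 lower (Cyp2c69, Cyp2c40 and Acot4) and a median of -0.14 that becomes 0.22 without scaling and 0.05 without control replicate 1. Cyp2c40 was not called without control replicate 2 or 3 or model replicate 2 or 3, and neither Cyp2c40 nor Acot4 without scaling. The growth hormone and IGF axis had 1 of 16 higher (Igfbp1), 3 lower (Igfals, Igfbp4 and Igf1) and a median of 0.03 that becomes -0.11 without control replicate 1, -0.01 without model replicate 2 and -0.05 with NONCODE transcripts added. Without scaling 3 were higher and 1 lower. Igfbp4 was not called without scaling. Igf1, the circulating growth factor induced by growth hormone, was at 141, 137 and 149 FPKM in the control livers and at 70.1, 78.1 and 72.2 in the model livers. The groups are far apart, but the call (log2 fold change -0.95, limma with Benjamini-Hochberg, adjusted p = 0.037) was lost with any 1 of the 6 livers left out and without scaling. Igfals, which carries Igf1 in blood, lay between 5.59 and 10.9 FPKM in the model livers and reached 24.4 in control replicate 1, with no overlap.

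Of 31 tested hepatocyte transcription factors and nuclear receptors 7 fell and 1 rose (Gata6), with a median of -0.41 that becomes 0.01 without scaling, where 3 were lower and 6 higher. Hnf4a, a master regulator of hepatocyte genes, was at 119, 127 and 139.8 FPKM in the control livers and at 97.7, 87.5 and 103 in the model livers. The groups do not overlap, and Hnf4a was not called (log2 fold change -0.41, limma with Benjamini-Hochberg, adjusted p = 0.1), with a value of 0.03 without scaling. Cebpa, another such regulator, was at 174, 177 and 164 FPKM and at 77.3, 56.1 and 91.1, and fell by 1.21 on the log2 scale. Creb3l3, a membrane-bound factor of lipid genes, fell by 1.11 (SE 0.11).

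Genes of fetal or dedifferentiated hepatocytes had 12 of 22 tested members higher and 0 lower, with a median of 0.65. Pkm, a pyruvate kinase that adult hepatocytes make little of, was at 8.40, 7.12 and 9.74 FPKM in the control livers and at 17.9, 25.2 and 21.5 in the model livers. Gpc3, a fetal proteoglycan, was at 0.624, 0.371 and 0.864 FPKM and at 1.59, 2.83 and 6.39. Igf2bp2, which binds fetal mRNAs, rose by 1.26. Eno1 and Ldha, the most abundant members, were not called.

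Of 41 tested genes of endoplasmic reticulum (ER) chaperones and the unfolded protein response 26 rose and 0 fell, with a median of 0.72. Hspa5, the main chaperone of the ER (BiP), was at 147, 199 and 155 FPKM in the control livers and at 396, 449 and 458 in the model livers. The difference on the log2 scale was 1.38 (SE 0.16, limma with Benjamini-Hochberg, adjusted p = 4.0e-04). Creld2, a secreted chaperone partner, was at 8.78, 16.9 and 16.6 FPKM and at 46.9, 64.7 and 45.2. Syvn1, the ligase that marks misfolded ER proteins for degradation, was at 8.67, 5.07 and 5.11 FPKM and at 39.1, 42.1 and 28.5. All 3 genes have control and model livers that do not overlap. P4hb, the most abundant member, was at 501, 463 and 2.71 FPKM in the control livers and at 574, 548 and 248 in the model livers. Its groups overlap, and P4hb was not called, with a log2 fold change of 2.17 (SE 1.48).

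The promoter windows of 3 ER genes are shown, all of which hold the ER stress response element. The windows run from 250 bases before to 50 bases after the start of each gene in RefSeq, on build GRCm38.p6, and 9448 of the 13086 genes tested have such a window. The ER stress response element was searched on both strands as CCAAT with CCACG 9 bases after it. It is in 0.119% of all 32851 windows, and by gene in 0.169% of genes tested with a window, in 9 of 1277 that rose and in 0 of 1151 that fell. Of the ER list 9 of 32 genes hold it, among them Calr and Canx, which were not called, and 7 of the 18 that rose (Hspa5, Hsp90b1, Pdia6, Dnajc3, Creld2, Syvn1 and Derl3). A match is a description of letters and not a shown binding site. The windows of Hspa5 (chr2:34771840-34772139), Creld2 (chr15:88819396-88819695) and Syvn1 (chr19:6046326-6046625), all on the plus strand, read as follows, with matches in capitals. Those of Hspa5 are TGAGTCA, which is TGACTCA on the other strand, and the ER element, and Creld2 carries the ER element on the other strand.
Hspa5: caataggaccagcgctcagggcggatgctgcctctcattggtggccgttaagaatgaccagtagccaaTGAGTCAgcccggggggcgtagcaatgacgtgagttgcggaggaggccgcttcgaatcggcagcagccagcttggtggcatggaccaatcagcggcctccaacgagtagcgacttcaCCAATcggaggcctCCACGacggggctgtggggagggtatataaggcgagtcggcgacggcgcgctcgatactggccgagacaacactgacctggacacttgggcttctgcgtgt
Creld2: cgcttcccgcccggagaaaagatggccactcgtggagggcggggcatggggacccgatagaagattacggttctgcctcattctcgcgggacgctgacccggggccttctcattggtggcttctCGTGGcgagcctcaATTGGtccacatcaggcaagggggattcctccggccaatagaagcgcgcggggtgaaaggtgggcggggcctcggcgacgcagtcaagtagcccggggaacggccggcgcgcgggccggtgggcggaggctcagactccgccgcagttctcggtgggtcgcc
Syvn1: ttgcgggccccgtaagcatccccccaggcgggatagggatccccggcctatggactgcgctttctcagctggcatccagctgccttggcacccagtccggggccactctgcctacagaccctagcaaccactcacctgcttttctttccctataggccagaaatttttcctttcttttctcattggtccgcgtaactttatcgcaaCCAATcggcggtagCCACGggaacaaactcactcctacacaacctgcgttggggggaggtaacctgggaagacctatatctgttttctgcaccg

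Of 38 tested targets of the integrated stress response, in which Atf4 answers to blocked translation, 20 rose and 0 fell, with a median of 0.92. With voom, or without control replicate 2 or model replicate 1, the count that fell was 1. Atf5 and Cebpb, the most abundant members, were not called and their groups overlap, with log2 fold changes of 0.03 and 0.33. Psat1, an enzyme of serine synthesis, was at 0.394, 0.127 and 0.335 FPKM in the control livers and at 15.9, 16.4 and 18.4 in the model livers. Fitted, the log2 fold change was 3.80 (SE 0.43, limma with Benjamini-Hochberg, adjusted p = 3.4e-04). Atf3, a stress-induced transcription factor, was at 0.370, 0.273 and 0.426 FPKM and at 35.8, 37.2 and 42.4. Ddit3, which encodes CHOP, was at 0.797, 1.12 and 1.55 FPKM and at 3.85, 27.0 and 35.4, with model replicate 1 well below the other model livers, and was not called over protein-coding transcripts only.

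The element TGATGCAA, bound by Atf4 with a partner, was searched on both strands in the same windows. It is in 0.895% of all windows, and by gene in 0.741% of genes tested, in 17 of 1277 that rose and in 9 of 1151 that fell. Of the targets on this list 9 of 32 hold it, among them Aars, Tars and Yars, which were not called, and 6 of the 16 that rose (Atf3, Chac1, Slc7a11, Fgf21, Nupr1 and Iars). Atf3 (chr1:191183284-191183583) and Nupr1 (chr7:126625421-126625720), both on the minus strand, are shown as members with a match, which stands in capitals as TTGCATCA, the element on the other strand.
Atf3: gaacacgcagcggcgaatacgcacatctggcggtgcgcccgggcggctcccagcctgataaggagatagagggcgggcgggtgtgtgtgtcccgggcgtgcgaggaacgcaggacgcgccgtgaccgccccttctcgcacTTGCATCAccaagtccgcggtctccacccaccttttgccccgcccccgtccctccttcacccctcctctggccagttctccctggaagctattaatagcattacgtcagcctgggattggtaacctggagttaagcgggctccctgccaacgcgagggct
Nupr1: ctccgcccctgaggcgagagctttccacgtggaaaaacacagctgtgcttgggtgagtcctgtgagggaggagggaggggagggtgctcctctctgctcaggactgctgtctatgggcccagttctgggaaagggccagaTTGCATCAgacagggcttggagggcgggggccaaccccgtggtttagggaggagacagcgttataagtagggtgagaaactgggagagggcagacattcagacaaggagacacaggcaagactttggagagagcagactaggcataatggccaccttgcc

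Immediate early and AP-1 genes had 21 of 25 tested members higher and 0 lower, with a median of 1.38. Jun, a subunit of AP-1, was at 2.04, 1.58 and 2.24 FPKM in the control livers and at 13.1, 19.8 and 15.8 in the model livers, a log2 fold change of 2.53 (SE 0.18, limma with Benjamini-Hochberg, adjusted p = 2.4e-05). Klf6 was at 4.49, 3.34 and 3.39 FPKM and at 20.2, 30.8 and 20.6. Dusp5, a phosphatase that shuts off ERK kinases, rose by 2.63. In these 3 genes all model livers lie above all control livers.

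The AP-1 element TGACTCA, searched on both strands, is in 5.2% of all windows, and by gene in 4.69% of genes tested, in 85 of 1277 that rose and in 50 of 1151 that fell. Of scar-associated macrophage genes 5 of 14 hold it, Cd68 and 4 of the 9 that rose (Gpnmb, Mmp12, Itgax and Anxa2), and of immediate early genes 0 of 21. In other lists the AP-1 element is in 5 of 29 NRF2 targets, 3 of 21 TGF-beta and matrix remodelling genes and 4 of 32 ER genes. It is in 3 of 32 integrated stress response targets, 2 of 26 pericentral genes and 1 of 22 myofibroblast genes. The windows of Gpnmb (chr6:49036268-49036567) and Mmp12 (chr9:7347124-7347423), on the plus strand, are shown as the members of the macrophage list with the largest log2 fold changes, and the match stands in capitals, for Mmp12 as TGAGTCA on the other strand. RefSeq gives Mmp12 2 windows, of which 1 is printed.
Gpnmb: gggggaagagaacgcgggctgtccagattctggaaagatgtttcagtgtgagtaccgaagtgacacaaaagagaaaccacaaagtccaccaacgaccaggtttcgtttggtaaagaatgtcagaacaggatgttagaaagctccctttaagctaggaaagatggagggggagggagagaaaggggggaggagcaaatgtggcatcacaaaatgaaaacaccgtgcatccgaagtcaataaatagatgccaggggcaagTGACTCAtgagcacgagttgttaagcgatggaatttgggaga
Mmp12: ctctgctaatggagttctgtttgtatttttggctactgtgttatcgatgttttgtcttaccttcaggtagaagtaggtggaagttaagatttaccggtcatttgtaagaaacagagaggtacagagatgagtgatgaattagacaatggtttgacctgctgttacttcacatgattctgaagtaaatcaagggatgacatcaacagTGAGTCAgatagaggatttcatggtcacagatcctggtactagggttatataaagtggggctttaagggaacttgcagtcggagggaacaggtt

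Of 20 tested cytosolic heat shock genes 6 rose and 0 fell, with a median of 0.64, and 12 were higher without scaling. Hspb1, a small heat shock protein, was at 10.6, 14.3 and 14.0 FPKM in the control livers and at 74.7, 159 and 79.1 in the model livers. Hspa1b rose by 3.10, with reads that cannot be told apart well from those of Hspa1a. Hsp90ab1 and Hspd1, the most abundant members, were not called and their groups overlap.

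NRF2 targets had 5 of 34 tested members higher (Gsta1, Slc7a11, Abcc4, Hmox1 and G6pdx), 2 lower (Abcc3 and Mgst1) and a median of 0.40. The share that rose is near the 13.2% over all genes tested, of which 11.8% fell. Hmox1, which breaks down heme, was at 18.8, 12.1 and 12.4 FPKM in the control livers and at 27.2, 52.7 and 42.7 in the model livers. The NRF2 element was searched as TGACNNNGC and is in 12.4% of all windows. By gene it is in 16.7% of genes tested, in 224 of 1277 that rose and in 153 of 1151 that fell. Of the 29 tested genes of this list with a window 12 hold it. Shares in other lists were 10 of 32 for ER genes, 10 of 32 for integrated stress response targets and 7 of 21 for TGF-beta and matrix remodelling. They were 6 of 21 for immediate early, 4 of 22 for myofibroblast, 3 of 14 for scar-associated macrophage and 1 of 26 for pericentral genes. Mgst1 fell by 0.86, and its call was lost without control replicate 1 or 2 or model replicate 2 and without scaling. G6pdx, which makes NADPH, was not called without control replicate 1 or 2 or model replicate 1, 2 or 3.

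Of 26 tested p53 targets and growth arrest genes 11 rose and 3 fell (Ei24, Perp and Sesn1), with a median of 0.59. Gadd45a, a stress-induced arrest gene, was at 1.37, 2.00 and 2.46 FPKM in the control livers and at 14.5, 11.8 and 15.2 in the model livers. Trp53inp1 rose by 1.52, from 11.5, 13.6 and 9.54 FPKM to 38.8, 35.2 and 30.4. Perp fell by 0.44, and its log2 fold change was 0.00 without scaling. The call of Perp was lost without control replicate 1 or 2 or model replicate 1 or 2, and that of Sesn1 without control replicate 1, 2 or 3 or model replicate 2 or 3. Lower genes numbered 1 without control replicate 1 or 2 or model replicate 2, and 1 without scaling.

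Proliferation genes had 11 of 44 tested members higher, 1 lower (Tk1) and a median of 0.94, with 18 higher without scaling. Ccnd1, the cyclin that drives entry into the cell cycle, was at 3.55, 3.09 and 3.01 FPKM in the control livers and at 25.9, 28.5 and 30.2 in the model livers. Cdc20, needed for exit from mitosis, was at 0.0482, 0.134 and 0.223 FPKM and at 7.24, 8.11 and 8.49. Mki67, a marker of dividing cells, was at 0.0644, 0.0725 and 0.333 FPKM and at 1.06, 1.66 and 1.67. Although the groups do not overlap, Mki67 was not called (log2 fold change 1.09, SE 0.48, limma with Benjamini-Hochberg, adjusted p = 0.13). The spread in this fit also takes in the drug-treated livers, and Mki67 reached 9.12 FPKM in phloridzin replicate 1. The mean log2 level of the list was 3.29 in that liver and at most 2.08 in any other. Of the 44 tested genes 39 had control and model livers that do not overlap. By limma, 22 were higher and 1 lower at an unadjusted p under 0.05. The count that rose was 4 without control replicate 1 or 2 or model replicate 2, and 5 without control replicate 3 or model replicate 1 or 3.

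Of 36 tested tubulin and actin cytoskeleton genes 16 rose and 1 fell (Actn4), with a median of 0.65. Actn4 was not called without control replicate 2 or 3 or model replicate 1, 2 or 3, nor without scaling. Tubb6, a beta tubulin, was at 1.24, 0.860 and 1.27 FPKM in the control livers and at 10.7, 18.5 and 16.9 in the model livers. Tpm4, a tropomyosin, rose by 1.48. Actb, the most abundant member, was at 244, 248 and 329 FPKM and at 237, 471 and 378, with overlap, and was not called.

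Cytosolic ribosomal proteins had 2 of 53 tested genes higher (Rpl12 and Rpl3), 0 lower and a median of 0.08 that becomes -0.01 without model replicate 3, with 16 higher without scaling and 6 without control replicate 3. Rpl3 lost its call without control replicate 1 or 2 or model replicate 1, 2 or 3. The proteasome had 2 of 35 lower (Psma6 and Psmb7), 0 higher and a median of -0.24 that becomes 0.20 without scaling, where 6 were higher and 0 lower. Both proteasome calls were lost without scaling, without control replicate 1 or 2 and without model replicate 1, and that of Psmb7 also without control replicate 3 or model replicate 2.

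Iron and heme genes had 5 of 27 tested members higher (Id1, Hamp2, Hmox1, Tfrc and Smad6), 6 lower and a median of -0.33 that becomes 0.12 without scaling, where 8 were higher and 1 lower. Hamp2, a paralog of the iron hormone hepcidin, was at 7.12, 6.23 and 4.18 FPKM in the control livers and reached 30.3 in model replicate 3, with no overlap, and was not called without control replicate 3. Id1, a target of BMP signals, rose by 2.02, and its call was lost without control replicate 1, 2 or 3 or model replicate 2 or 3. Tfrc was not called without control replicate 1 or 3 or model replicate 1 or 3, and Smad6 not without control replicate 1, 2 or 3 or model replicate 1 or 3. The count that rose was 2 without control replicate 1, 1 without control replicate 3 and 3 without control replicate 2 or model replicate 1 or 3.

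Red blood cell genes, which measure blood left in the tissue, had 4 of 7 tested members lower (Klf1, Slc4a1, Hba-a1 and Alas2) and 0 higher, with a median of -1.09 and 2 lower without scaling. Hba-a1 was not called without control replicate 1 or 3 or model replicate 1, 2 or 3. The summed level over 9 red cell genes was 1237, 1300.4 and 1198 FPKM in the control livers and 657, 713 and 487 in the model livers, with Hbb-bs the most abundant. Hemoglobin genes are near-identical paralogs, and the part of blood content in the other results was not tested. Clock genes, which follow the hour of collection, had 2 of 17 higher (Cry1 and Bhlhe40), 2 lower (Nr1d1 and Cry2) and a median of 0.12 that becomes -0.10 without control replicate 3, with 3 higher and 0 lower without scaling. Their summed level over 18 genes was 128, 115 and 117 FPKM in the control livers and 131, 126 and 112 in the model livers. Nr1d1, with the widest daily swing of these, was at or above 5.53 FPKM in the control livers and at 3.84, 2.45 and 3.96 in the model livers. This call was lost without control replicate 1 or 3 or model replicate 1 or 2 and without scaling, with that of Cry2 lost without control replicate 1 or 2, model replicate 2 or 3 and scaling, and the part of collection time in the other results was not tested.

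**Figure D5:**
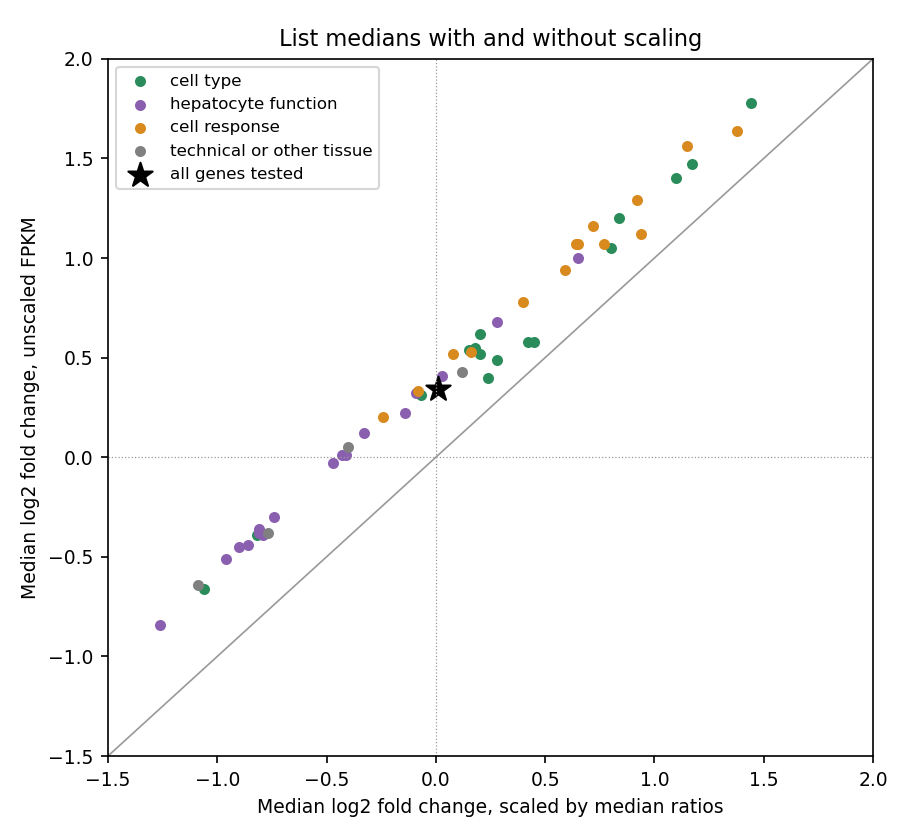
Median log2 fold change of each of the 51 lists with livers scaled by median ratios (x) and with unscaled FPKM (y), coloured by kind of list, with a star for all genes tested (0.01 and 0.34). All points lie above the diagonal, and the 9 lists left of the vertical and above the horizontal dotted line, such as sinusoidal endothelium (-0.07 and 0.31) and oxidative phosphorylation (-0.43 and 0.01), change sign.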

How the data were processed

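Total RNA of 12 livers was sequenced by the authors, who per the labels used bcl2fastq, FastQC 0.11.5, HISAT2 2.1.0, StringTie 1.3.3b and DESeq 1.28.0 on build mm10. The authors deposited 169430 transcripts with 1 FPKM value a liver, scaled by transcript length and library size. Library sizes were recovered from the step between values of transcripts of at least 1500 bases. Only the 82136 Ensembl transcripts carry a symbol. FPKM was summed over the 24296 symbols, scaled by median ratios and taken as log2(FPKM + 1). Genes with a mean of at least 0.5 FPKM over the 12 livers were fitted in 4 groups by limma 3.58.1 in R 4.3.3 with a trend in the variance, two-sided, with Benjamini-Hochberg adjustment. The fit was tested on simulated data. Python 3.11.15, numpy 2.4.6, pandas 2.3.3 and matplotlib 3.10.9 did the rest.

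The livers compared and the 51 gene lists were chosen with earlier results of these data known. Named genes are, for each list, up to 4 called genes with the largest absolute log2 fold change among those with a mean of at least 1 FPKM in either group and the 2 most abundant members. Added to these are the 8 largest rises and 8 largest falls over all genes without overlap, outside Mup genes and unnamed loci, and 25 fixed genes. Not all of these are described. Alternatives were other scalings, pseudocounts of 0.1 and 0.5, other filters, Ensembl transcripts only, the control and model livers only, the replicate number as a block, no trend, voom of limma on recovered fragments, a fold change cutoff and each of the 6 livers left out. A further 2 alternatives were chosen after seeing the data, protein-coding transcripts only and noncoding (NONCODE) transcripts added to the gene that holds them.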

Additional observations from a re-analysis of the deposited data

How the results depend on the processing

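The counts of genes that rose and fell, 1727 and 1547, stayed within 1.5 times under upper quartile scaling, other pseudocounts and filters, no trend, voom, the control and model livers only, and the 2 alternatives chosen after seeing the data. They moved to 4094 and 500 without scaling, and to 526 and 453 with the fold change cutoff, which keeps fewer genes by construction. With each liver left out, between 1165 and 1395 genes rose and between 980 and 1286 fell. Leaving out a liver leaves fewer samples. Ensembl transcripts only gave the same sums and is not counted again.

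Deviations of same-numbered control and model livers correlated across genes at 0.08, -0.03 and -0.01, and those of other pairs between -0.04 and 0.06. No pairing by replicate number was seen, though 3 livers a group are too few to exclude it, and genes are not independent replicates. With the replicate number as a block, 1553 genes rose and 1407 fell. Of 247 named genes 171 were called, 114 of them under every one of 18 settings and 130 with each liver left out. Without scaling 28 lost the call and Perp changed sign, with a log2 fold change of 0.00. Scaling divides all genes of a liver by the same factor, so leaving it out moves Perp as it moves other genes. The factors lie between 0.82 and 0.885 in the control livers and between 1.151 and 1.19 in the model livers. Calls of named genes lost under other settings numbered 27 with no filter, 12 with the control and model livers only, 12 with protein-coding transcripts only, 11 with voom, 10 with the block, 4 with upper quartile scaling, 3 with a pseudocount of 0.1, 1 without trend and 1 with NONCODE transcripts added. The median of 9 of 51 lists changed sign without scaling, that of 6 lists with a liver left out and that of 1 list under the other settings, growth hormone and IGF with NONCODE transcripts added. Medians that moved by more than the spread between livers numbered 47 without scaling, 15 with a pseudocount of 0.1 and 15 with voom. They numbered 9 with a pseudocount of 0.5, 6 with the filter at a mean of 1 and 4 with protein-coding transcripts only. With upper quartile scaling or NONCODE transcripts added 0 moved, and with a liver left out between 1 and 8. A median could not move with no filter, no trend, the block or the control and model livers only. These settings leave the log2 fold change of each tested gene as it is. At 83.7 to 109.6 M fragments per liver, lists can rest on few members above the filter, such as 7 of 19 for T cells.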
